A study of Mus musculus with 12 samples.

Results

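The Myc and Max network is a family of transcription factors that pair through a basic helix-loop-helix zipper, and 10 of its genes were followed here: Myc, Mycn, Mycl, Max, Mxd1, Mxd3, Mxd4, Mxi1, Mga and Mlx. They were taken by symbol from the deposited gene counts, and all 10 were present among the 51826 gene identifiers of the forelimb data and the 55401 of the culture data. The study deleted Impdh2, an enzyme of guanine nucleotide synthesis, in mice, and sequenced RNA from 12 libraries in 6 groups of 2. The forelimbs were those of E12.5 embryos, either Impdh2 WT or Prx-cKO, in which a Prx-driven deletion targets limb mesenchymal progenitors. The cultures were osteoclast cultures from bone marrow of Impdh2 WT or LysM-cKO mice, in which a LysM-driven deletion targets the myeloid lineage. Each culture genotype has samples titled R40D3 and samples titled R0D3. The treatment label is identical for all 8 of them and describes M-CSF from L929 supernatant and then RANKL, the cytokine that induces osteoclasts. It gives M-CSF equivalent to 20 ng/ml, RANKL at 40 ng/ml and 3 days of marrow culture, for the R0D3 samples too. The titles are used as names, and reading R40 and R0 as RANKL doses is an inference from that protocol. A forelimb also holds muscle, blood, vessel and skin cells, which are not the target of the Prx-driven deletion. The labels do not say whether the WT animals carried the unrecombined Impdh2 allele, nor whether the samples of a group came from separate animals or litters, so p-values measure only the spread between these samples, which may be technical.

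Myc, Mycn and Mycl proteins pair with Max, bind E-box DNA with the core CACGTG, and activate genes of ribosome production, nucleotide synthesis and growth. Mxd1, Mxd3, Mxd4, Mxi1 and Mnt also pair with Max at the same sites, where they recruit Sin3 and histone deacetylases and repress. Mga pairs with Max inside a Polycomb complex, PRC1.6, and Mlx pairs with the glucose-responsive factors Mlxip and Mlxipl and with Mxd1, Mxd4 and Mnt. Mycn is the Myc gene best known in limb bud mesenchyme, Myc is described as needed for osteoclast formation, and Impdh2 itself is a described Myc target.

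All 10 genes are protein coding in the mouse annotation (build GRCm38). Exon lengths used below come from this annotation, and the features that the submitters counted over are not given. Myc lies at chr15:61985391-61990374 on the plus strand, Mycn at chr12:12936093-12941914 on the minus strand and Mycl at chr4:122995652-123002485 on the plus strand. Max lies at chr12:76937269-76962201 on the minus strand. The repressive partners Mxd1 (chr6:86647042-86669161), Mxd3 (chr13:55325168-55329823) and Mxd4 (chr5:34173883-34187720) lie on the minus strand, and Mxi1 (chr19:53310518-53375810) lies on the plus strand. Mga (chr2:119897228-119969581) and Mlx (chr11:101087277-101092207) are on the plus strand. Exons of Mxd3, Mxd4, Mxi1 and Mlx overlap exons of a gene on the opposite strand, Prelid1, Gm42846, Gm10197 and Psmc3ip respectively. Whether the counting used strand is not given in the sources used here, so the values of these 4 genes may include reads from their partners.

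Promoter sequences, from 250 bases before to 50 bases after the transcription start, were available for 9 of the 10 genes in the RefSeq table (GRCm38.p6). The Myc-Max site CACGTG, which reads the same on both strands, was found in 3 of these 9, those of Max, Mlx and Mxd4. Of all 27025 genes with a promoter in that table, 8.09% held it. It was also found in the promoters of Mnt and Mlxipl, and in 9 of 30 promoters of Myc-activated genes, the list described below. The 5 windows below, each 50 bases with CACGTG in capitals, show the site in the network genes Max, Mlx, Mxd4 and Mnt and, for comparison, in Hspd1, a Myc-activated gene that rose in the R40D3 cultures. They are written along the gene's own strand, and positions are counted from the transcription start.
Max, chr12:76962224-76962273, minus strand, site at -3: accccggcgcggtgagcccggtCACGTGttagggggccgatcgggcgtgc
Mlx, chr11:101087228-101087277, plus strand, site at -40: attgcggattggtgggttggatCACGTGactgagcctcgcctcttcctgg
Mxd4, chr5:34187902-34187951, minus strand, site at -219: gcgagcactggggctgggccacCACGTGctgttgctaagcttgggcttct
Mnt, chr11:74830779-74830828, plus strand, site at -123: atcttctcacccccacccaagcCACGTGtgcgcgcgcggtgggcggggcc
Hspd1, chr1:55088296-55088345, minus strand, site at -80: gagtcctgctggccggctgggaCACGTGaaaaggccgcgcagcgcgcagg

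The Mycn and Mycl promoters held no CACGTG in this window, which says only that these letters are not in it. They did hold the GC box GGGCGG, searched on both strands, as did 7 of the 9 promoters against 38.2% of all genes with a promoter. The last 120 bases before the start are shown for these genes, with the GC box (GGGCGG, or CCGCCC where it lies on the other strand) in capitals, because Mycn and Mycl are the Myc genes whose levels differed most between tissues. The start is that of the RefSeq table and differs from the annotated gene spans given above. The Mycl window therefore lies within its span, and the Mycn window overlaps its own. A match is a description of the letters and shows no binding.
Mycn, chr12:12941837-12941956, minus strand: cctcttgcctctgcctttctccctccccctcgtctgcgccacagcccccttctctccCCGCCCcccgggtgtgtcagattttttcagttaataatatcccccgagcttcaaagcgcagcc
Mycl, chr4:122995811-122995930, plus strand: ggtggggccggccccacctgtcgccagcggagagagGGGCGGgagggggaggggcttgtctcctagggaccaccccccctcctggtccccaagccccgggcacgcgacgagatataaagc

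The forelimb libraries held 28892215 to 69466572 counts and the culture libraries 16009146 to 19221865. Values are counts per 1000000 counts (CPM) after scaling for composition. Impdh2 checked the labels. It stood at 170 and 199 CPM in the Prx-cKO forelimbs against 260 and 272 in WT (log2 fold change -0.53, SE 0.16, adjusted p = 0.443). In the LysM-cKO cultures it was at 7.03 to 8.38 CPM against 22.3 to 28.2 in WT, and it was lower at R40D3 (-1.73, adjusted p = 0.0386) and at R0D3 (-1.81, adjusted p = 0.0324, edgeR). Forelimbs expressed the 10 limb mesenchyme markers, with summed levels of 1353 to 1978 CPM, and all 10 osteoclast markers rose from R0D3 to R40D3 in both genotypes. In bulk RNA, fewer cells of a type and less RNA per cell cannot be told apart.

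The 3 Myc genes divided sharply by tissue. Per kilobase of exon, which lets genes of different length be compared, Mycn supplied 49.5% ± 15.4 (SD, n = 2) of the summed Myc-family level in WT forelimbs, Mycl 29.2% ± 3.19 and Myc 21.3% ± 12.2. In every culture group Myc itself supplied 93.8% or more. The summed level per kilobase was 34.3 ± 11.1 CPM in WT forelimbs and 72.1 ± 9.34 in Prx-cKO forelimbs. It was 7.27 ± 1.94 in WT R0D3 cultures, 7.86 ± 1.78 in LysM-cKO R0D3, 8.66 ± 1.77 in WT R40D3 and 8.84 ± 2.61 in LysM-cKO R40D3 (all n = 2). The Prx-cKO forelimbs, at 65.5 and 78.7, lay above the WT forelimbs, at 26.5 and 42.2, while the 4 culture groups overlapped. Forelimb and culture counts came from separate tables that were scaled separately, so levels are set side by side across them with no test.

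**Figure D1:**
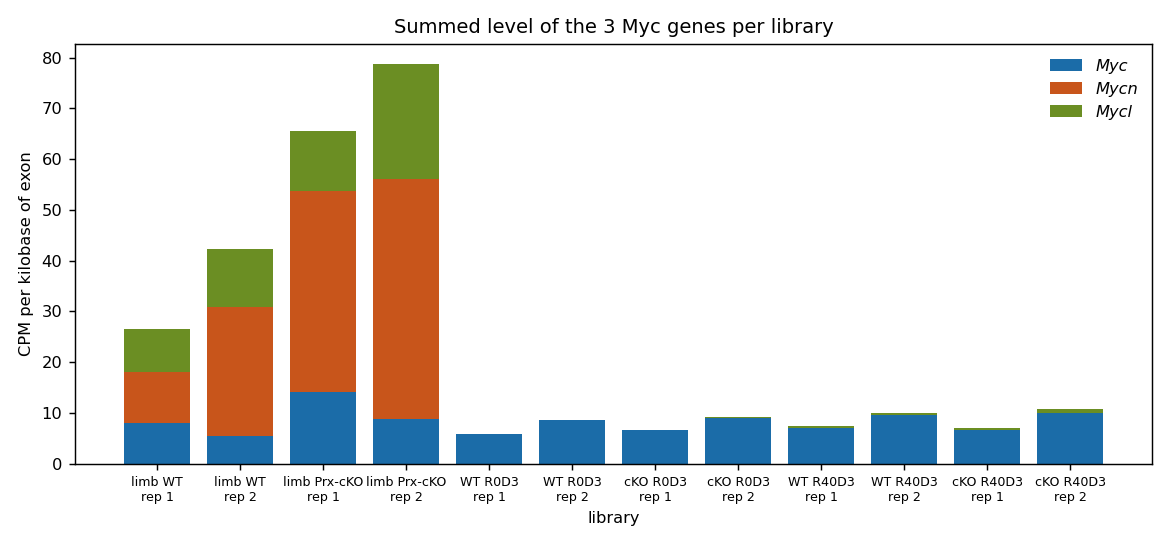
Summed level of Myc, Mycn and Mycl in CPM per kilobase of exon (y axis) in each of the 12 libraries (x axis), stacked by gene. Mycn makes up 38.6% to 60.6% of each forelimb bar, the Prx-cKO forelimb bars reach 65.5 and 78.7 against 26.5 and 42.2 in WT, and the culture bars consist almost wholly of Myc.

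Across the whole network the order of levels per kilobase also differed by tissue. In WT forelimbs Mxd4 (18.6 CPM per kilobase) and Mycn (17.8) were highest, followed by Mxd3 (14.8), and each overlapped the next in its replicates. Max (11.6) and Mycl (9.84) overlapped each other and lay below Mxd3 and Mxd4, but overlapped the wide range of Mycn. Mlx (6.71), Myc (6.65), Mxi1 (6.41) and Mga (6.10) followed, each overlapping its neighbour, and Mxd1 lay apart at 4.37. In Prx-cKO forelimbs Mycn stood alone at 43.5, apart from Mycl at 17.3. From Mycl on, Mxd3 (13.9), Mxd4 (13.8), Max (12.96), Myc (11.4) and Mlx (8.34) each overlapped the next. Mxi1 (6.33) lay apart, and Mga (3.95) and Mxd1 (3.66) overlapped at the end.

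In the cultures Max, the common partner, was the highest member per kilobase in every group, at 35.3 to 39.0 CPM per kilobase, and its replicates overlapped those of no other member. Mxd4 (15.3 to 19.4) and Mlx (17.5 to 21.7) came next, with Mlx ahead in WT R40D3 and Mxd4 ahead in the other 3 groups. They overlapped in both LysM-cKO groups, and with the longest transcript as the length Mxd4 was ahead of Mlx in WT R40D3 too (28.1 against 22.1). Mxi1 (9.82 to 10.8), Myc (7.25 to 8.29), Mga (5.44 to 6.33) and Mxd1 (4.53 to 4.80) followed in that order in all 4 groups. Replicates of Mxi1 and Myc overlapped in both LysM-cKO groups, those of Myc and Mga in every group but WT R40D3, and those of Mga and Mxd1 in every group but LysM-cKO R40D3. Mxd3 and Mycl stayed below 1, and Mycn was last. With the longest transcript in place of all exons as the length, 38 of 60 places in the 6 orders were the same.

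In the forelimbs all 3 Myc genes had a higher CPM in both Prx-cKO libraries than in either WT library, but no member passed the test. Mycn was at 131 and 156 CPM in Prx-cKO and at 33.7 and 83.9 in WT. Both knockout libraries lay above both WT libraries, and the WT libraries themselves differed by more than the knockout libraries did. The log2 fold change was 1.28 (SE 0.43, unadjusted p = 0.0299, adjusted p = 0.459, edgeR), from means of 143 ± 17.7 and 58.8 ± 35.5 CPM (SD, n = 2). Without WT replicate 2 it was 2.099 and passed (adjusted p = 0.00604); without WT replicate 1 it was 0.74 and did not (adjusted p = 0.0942). The size and the call thus turn on which WT library is used.

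Mycl was at 47.6 and 91.7 CPM in Prx-cKO and at 33.6 and 45.9 in WT. The groups were separated by less than 2 CPM, and the 2nd Prx-cKO library carried most of the difference (log2 fold change 0.81, SE 0.35, adjusted p = 0.506; 0.26 without that library). Myc was at 38.1 and 23.7 CPM in Prx-cKO and at 21.5 and 14.6 in WT. Here it was the 1st Prx-cKO library that stood higher (log2 fold change 0.77, SE 0.32, adjusted p = 0.489; 0.40 without it). The share of Mycn in the summed Myc-family level was 60.6% and 60.1% in the 2 Prx-cKO libraries and 60.4% in WT replicate 2, against 38.6% in WT replicate 1.

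**Figure D2:**
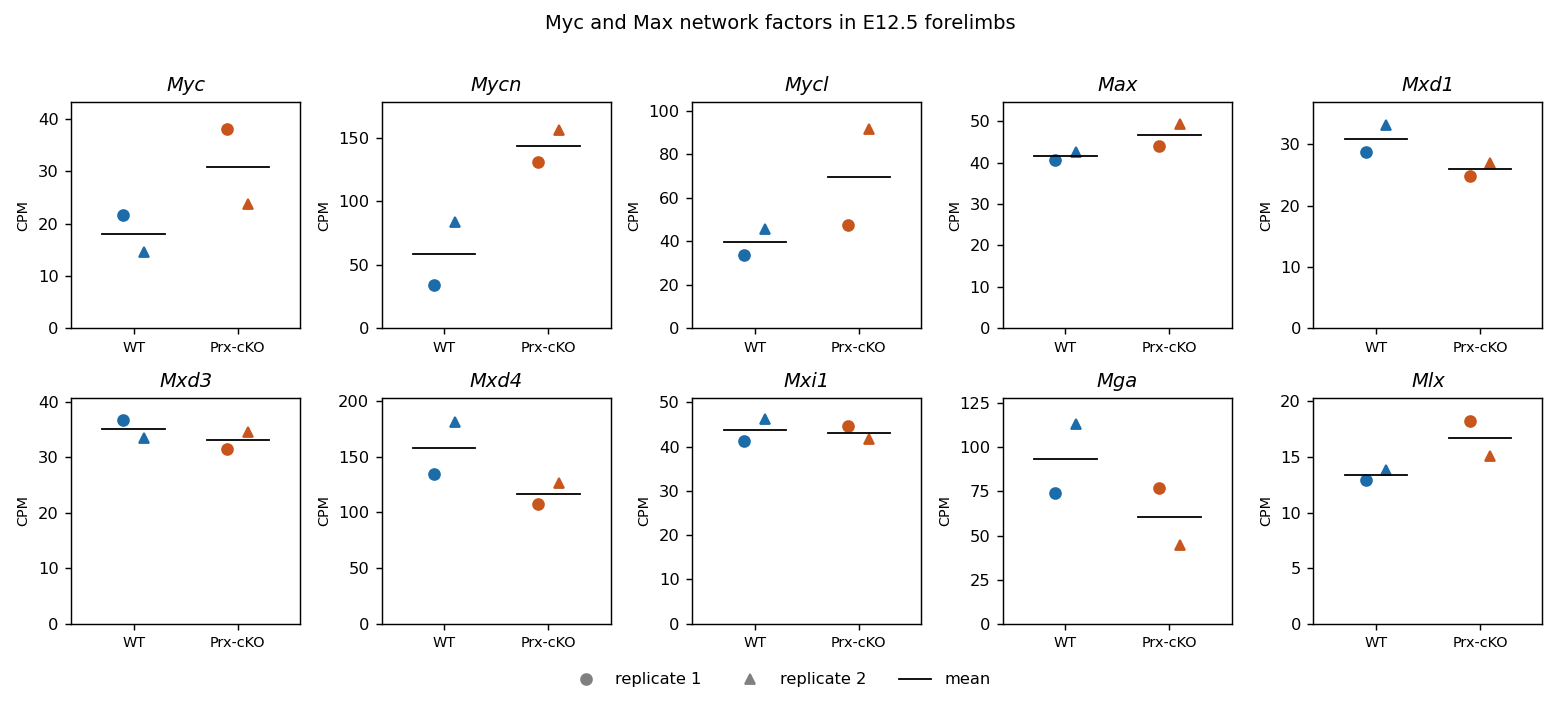
CPM of the 10 network genes (y axis, linear and starting at 0, its own scale in each panel) in WT (blue) and Prx-cKO (orange) forelimbs, circles for replicate 1 and triangles for replicate 2, with a line at the mean of 2. For Myc, Mycn, Mycl, Max and Mlx both Prx-cKO points lie above both WT points, for Mxd1 and Mxd4 both lie below, and for Mxd3, Mxi1 and Mga the groups overlap.

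Max, the partner shared by the Myc and Mxd proteins, was nearly level in the forelimbs, at 44.0 and 49.2 CPM in Prx-cKO and at 40.7 and 42.6 in WT. The groups did not overlap, but the difference was small (log2 fold change 0.16, SE 0.16). Mxd4, a repressive partner linked to withdrawal from growth, was at 107 and 126 CPM in Prx-cKO and at 135 and 181 in WT, and the WT libraries were the higher ones without overlap (-0.43, SE 0.20, adjusted p = 0.524). Mxd1 had the same order, with 24.8 and 27.0 CPM against 28.7 and 33.1 (-0.26, SE 0.18). For the other repressive partners the groups overlapped. Mxd3, which is known to follow S phase, was at 31.5 and 34.6 CPM against 36.8 and 33.4, and Mxi1 was at 44.7 and 41.7 against 41.3 and 46.2.

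Mga, the largest protein of the network, varied as much within a genotype as between them, at 76.7 and 44.4 CPM in Prx-cKO and at 74.1 and 113 in WT (-0.63, SE 0.34, adjusted p = 0.566). Mlx was the least abundant member by CPM, at 18.2 and 15.1 in Prx-cKO and at 12.97 and 13.9 in WT, and its groups did not overlap (0.31, SE 0.21). Of the network factors outside the 10, Mnt was at 39.5 and 39.3 CPM against 38.7 and 44.1, and Mlxip was at 52.5 and 44.1 against 50.9 and 62.1. Mlxipl was low, at 3.41 and 2.96 against 6.28 and 3.57. In all, 5 members were higher without overlap and 2 were lower, where 22.2% of the 19987 genes tested were higher and 21.0% lower in the same sense. At an unadjusted p under 0.05 there was 1 member, Mycn, against 5.87% of genes higher and 4.61% lower. After adjustment edgeR called 0.0% of genes in this comparison and 2096 genes had an unadjusted p under 0.05, while DESeq2 called 302 genes and none of the members.

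The genes that Myc proteins are described to activate were mostly higher in the Prx-cKO forelimbs, though none passed the adjusted test. Of 38 such genes, 36 had a higher fitted value and 14 did so at an unadjusted p under 0.05, with a median log2 fold change of 0.45, where the median of all genes tested was -0.03 and 47.2% of them were higher. Srm, which makes spermidine, was at 162 and 197 CPM against 110 and 91.9 in WT (0.83, SE 0.18, adjusted p = 0.392). Bop1, a ribosome assembly factor, was at 136 and 165 CPM against 90.0 and 102 (0.65, SE 0.17), and both knockout libraries were again the higher ones. The nucleolar methyltransferase Fbl (0.54) and the growth regulator Pa2g4 (0.54) had the next smallest p.

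Coactivators and other partners that bind Myc showed 13 of 16 genes higher, with a median of 0.26 and 5 at an unadjusted p under 0.05. The paired ATPases Ruvbl1 and Ruvbl2 led them, with Ruvbl1 at 134 and 168 CPM against 98.7 and 99.6 (0.61, SE 0.17) and Ruvbl2 at 159 and 199 against 117 and 120 (0.59, SE 0.17). Subunits of the Sin3 and deacetylase complex that Mxd proteins recruit were higher in 9 of 10, with a median of 0.14 and none at an unadjusted p under 0.05. The PRC1.6 partners of Mga had a median of 0.13 with 1 of 10, Tfdp1, at that level (0.38), and regulators of Myc protein stability had a median of 0.07 with none. None of the 8 targets of Mlx and its partners reached that level.

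Genes described as repressed by Myc gave both directions. The cell cycle inhibitor Cdkn1a, which is also a p53 target, was at 107 and 114 CPM in Prx-cKO and at 24.8 and 25.9 in WT, with tight replicates on both sides (2.12, SE 0.15, adjusted p = 0.118). Cdkn1b, another inhibitor, was at 22.4 and 22.2 CPM against 42.4 and 50.8 (-1.06, SE 0.18, adjusted p = 0.332). Of the 10 genes, 6 were higher, 1 of them at an unadjusted p under 0.05, and 2 were lower at that level, the other being Ndrg2 (-0.57).

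Other marker lists differed beside these values. The 20 cell cycle genes had a median of 0.35 with 18 higher, and their summed level was 5337 and 6031 CPM in Prx-cKO and 4370.5 and 5003 in WT. The 10 skeletal muscle markers summed to 974 and 466 CPM against 361 and 354, and the 10 macrophage markers to 68.8 and 61.7 against 37.2 and 41.8. The 8 endothelial markers summed to 206 and 208 CPM against 157 and 167, with 7 of 8 higher, 4 of these at an unadjusted p under 0.05, and a median of 0.39; the other, Erg, was lower (-0.97). The 10 limb mesenchyme markers summed to 1353 and 1444 CPM against 1787 and 1978. No marker of these 5 lists was at 0 in any forelimb library. The part of these differences in the levels of Mycn, Mycl and Myc and of their targets was not tested.

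In the cultures Mycl was the only member that rose from R0D3 to R40D3 by the test, and it did so in both genotypes. In WT it was at 0.00 and 0.12 CPM in R0D3 and at 1.46 and 1.65 in R40D3, which are 2 counts in all against 55. The groups were far apart, and the ratio of levels was 25.8, with a 95% exact interval of 6.80 to 218 that covers counting error only (adjusted p = 0.0099, edgeR). In LysM-cKO it was at 0.11 and 0.24 CPM in R0D3 and at 1.48 and 2.96 in R40D3, 6 counts against 76. That ratio was 12.2 with an interval of 5.36 to 34.3 (log2 fold change 3.57, SE 0.68, adjusted p = 0.0124). Against the forelimbs, where Mycl stood at 33.6 CPM or more, all culture values were low.

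The call for Mycl rests on few counts. In WT it was lost without R0D3 replicate 1 (adjusted p = 0.0981), R0D3 replicate 2 (0.0561) or R40D3 replicate 2 (0.0644), and in LysM-cKO without R0D3 replicate 1 (0.0823), R0D3 replicate 2 (0.0703) or R40D3 replicate 2 (0.0661), as well as when only the 4 LysM-cKO libraries were fitted (0.0596). The fitted log2 fold change stayed at 2.98 or more throughout. Both genotypes use separate libraries here, so these are 2 comparisons with no shared control. They are not independent, because they come from the same fit and same-numbered libraries deviated together across genotypes (r = 0.343 to 0.534). The increases in the 2 genotypes did not differ by the interaction test (log2 difference -0.96, SE 1.54), whose error is wide.

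Myc, by far the main Myc gene in these cells, did not pass the test in any culture comparison. It was at 16.0 and 23.4 CPM in WT R0D3, 19.1 and 25.8 in WT R40D3, 17.9 and 24.6 in LysM-cKO R0D3 and 18.0 and 27.1 in LysM-cKO R40D3. In all 4 groups the library numbered 2 was the higher one, by more than the groups differed. The log2 fold change from R0D3 to R40D3 was 0.19 (SE 0.28) in WT and 0.08 (SE 0.28) in LysM-cKO. With the replicate number as a block these were 0.20 (SE 0.10, adjusted p = 0.180) and 0.07 (SE 0.10, adjusted p = 0.657). Mycn gave 1 count in 8 libraries, in LysM-cKO R40D3 replicate 1. A count of 0 allows up to 3 counts, or 0.157 to 0.187 CPM across these libraries, so Mycn was not detectable at this depth and entered no test.

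**Figure D3:**
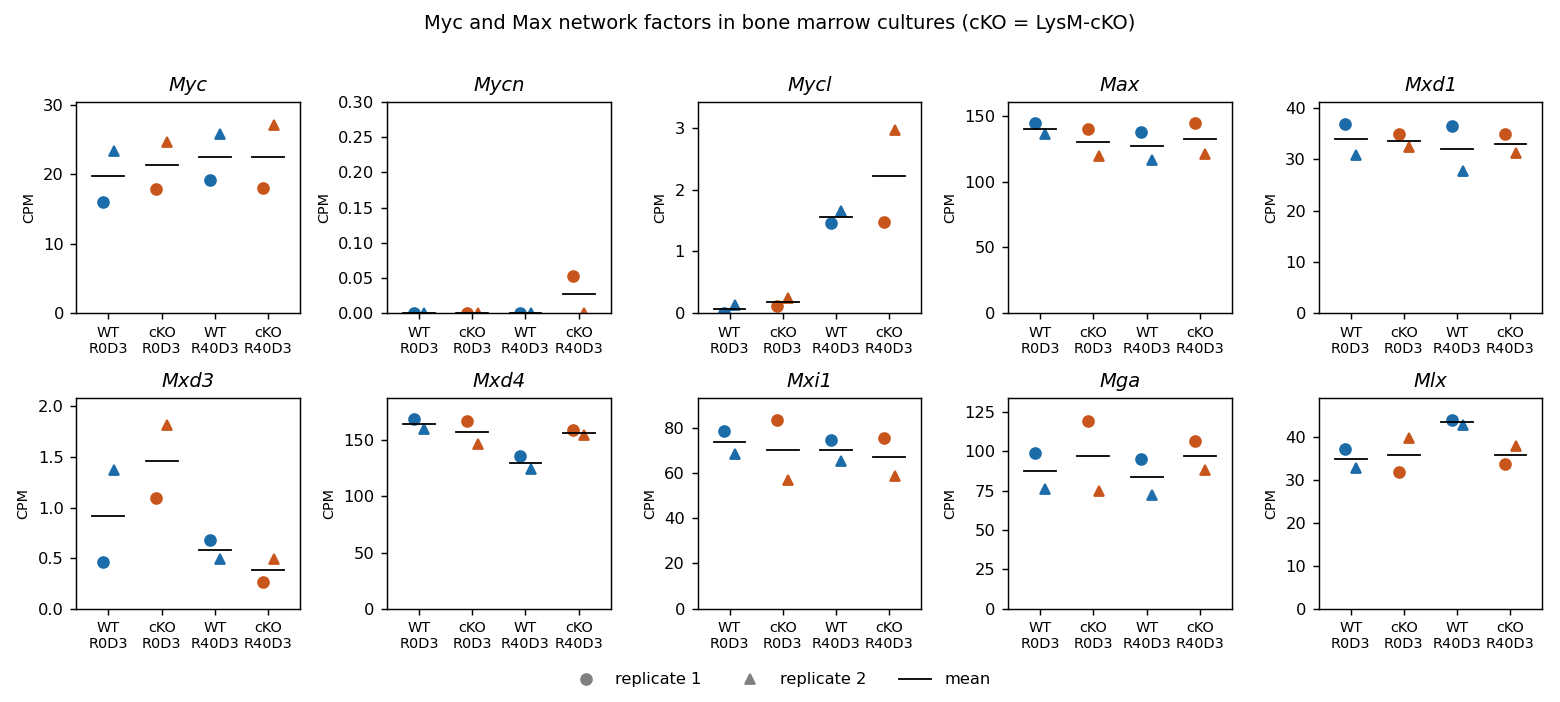
CPM of the 10 network genes (y axis, linear and starting at 0, its own scale in each panel) in the 4 culture groups, WT in blue and LysM-cKO in orange, circles for replicate 1 and triangles for replicate 2, with a line at the mean of 2. Mycl lies at 0.24 CPM or below in R0D3 and at 1.46 or above in R40D3, Mxd4 is lowest in WT R40D3, and the Myc triangle lies above its circle in every group.

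Among the repressive partners Mxd4 was the one nearest the threshold in WT cultures. It was at 169 and 160 CPM in R0D3 and at 136 and 124 in R40D3, and the groups did not overlap (log2 fold change -0.34, SE 0.10, adjusted p = 0.0514). With the replicate block it fell (adjusted p = 0.0063). In LysM-cKO it was at 167 and 147 CPM in R0D3 and at 159 and 154 in R40D3, with overlapping groups and a log2 fold change of -0.00 (SE 0.10). The difference between the genotypes in this response was 0.33 (SE 0.13, unadjusted p = 0.0404), which did not pass adjustment over all genes (adjusted p = 1.00, and 0.811 with the replicate block).

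Mxd3 was scarce in the cultures. It was at 1.09 and 1.82 CPM in LysM-cKO R0D3 and at 0.26 and 0.49 in LysM-cKO R40D3, which are 19 and 30 counts against 5 and 8. The groups did not overlap (-1.95, SE 0.63, adjusted p = 0.105), and with the replicate block it fell (adjusted p = 0.0315). In WT it was at 0.47 and 1.37 CPM in R0D3 and at 0.68 and 0.49 in R40D3, where the groups overlapped (-0.61, SE 0.63). The summed cell cycle genes stood at 719 and 1516 CPM in LysM-cKO R0D3 and at 478 and 771 in LysM-cKO R40D3, so the library with the most Mxd3 was also the one with the most cell cycle RNA; its part was not tested. Mxd1 and Mxi1, both linked to differentiation, overlapped between R0D3 and R40D3 in both genotypes, with Mxd1 between 27.7 and 37.0 CPM and Mxi1 between 56.9 and 83.4.

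Max ranged from 116 to 145 CPM over the 8 culture libraries and Mga from 71.9 to 119, and neither passed the test. Mlx was at 37.1 and 32.8 CPM in WT R0D3 and at 44.0 and 42.8 in WT R40D3. The R40D3 libraries were the higher ones without overlap (0.31, SE 0.13, adjusted p = 0.162). In LysM-cKO it was at 31.8 and 39.8 CPM in R0D3 and at 33.7 and 37.9 in R40D3, and the groups overlapped (-0.00, SE 0.13). Its partner Mlxip, a sensor of glucose phosphates, rose in WT from 90.4 and 87.8 CPM to 115 and 109 (0.33, SE 0.08, adjusted p = 0.036). That call was lost with DESeq2 (adjusted p = 0.0818), with no filter on low counts (0.138) and when any 1 of the 4 WT libraries was left out (0.145 to 0.203), while the fold change stayed between 0.27 and 0.35. In LysM-cKO it was at 95.3 and 85.4 CPM in R0D3 and at 106 and 105 in R40D3 (0.22, SE 0.08, adjusted p = 0.160), also without overlap. Mnt had -0.21 in WT (adjusted p = 0.382) and fell there with the replicate block (adjusted p = 0.0417). The scarce Mlxipl had 2.62 (SE 1.62) in LysM-cKO (adjusted p = 0.380) and was called higher there with the block (adjusted p = 0.0124). Its groups overlapped, with 3 and 1 counts in R0D3 and 26 and 1 in R40D3. That value thus rests on R40D3 replicate 1, and it ran from -0.86 to 3.49 when 1 library was left out. The 1 of 9 members called in WT stands beside 16.9% of the 14030 genes tested (11.4% higher and 5.52% lower), and the 1 of 9 in LysM-cKO beside 10.1% (6.99% higher and 3.15% lower). With the replicate block 2 of 9 were called in each genotype, Mycl with Mxd4 in WT and Mycl with Mxd3 in LysM-cKO, beside 28.3% and 21.3% of all genes.

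Myc-activated genes rose in the R40D3 cultures in part, without a called change in Myc. In WT 10 of 37 were called higher and none lower, where 11.4% of all genes tested were called higher and 5.52% lower. The median log2 fold change was 0.26 against 0.01 over all genes tested. In LysM-cKO 5 of 37 were called higher and none lower, beside 6.99% and 3.15% of all genes, with a median of 0.19 against 0.01. With the replicate block 16 were called higher and 2 lower in WT, beside 2346 and 1630 of the 14030 genes tested. In LysM-cKO the block called 8 higher and 1 lower, beside 1830 and 1153. The mitochondrial chaperone Hspd1 was at 127 and 135 CPM in WT R0D3 and at 242 and 270 in WT R40D3 (0.96, SE 0.10, adjusted p = 0.0012). It was at 128 and 132 in LysM-cKO R0D3 and at 204 and 231 in LysM-cKO R40D3 (0.74, SE 0.10, adjusted p = 0.00525). Odc1, the first enzyme of polyamine synthesis, rose from 52.0 and 52.1 CPM to 102 and 120 in WT and from 44.4 and 50.5 to 76.2 and 87.7 in LysM-cKO. Nolc1, a nucleolar protein, rose by 0.67 and 0.47 on the log2 scale. The WT count was 2 to 4 when any of the 4 libraries was left out and 16 with the replicate block; the LysM-cKO count was 1 without R0D3 replicate 1 or R40D3 replicate 2, 2 without R0D3 replicate 2 and 8 with the block.

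**Figure D4:**
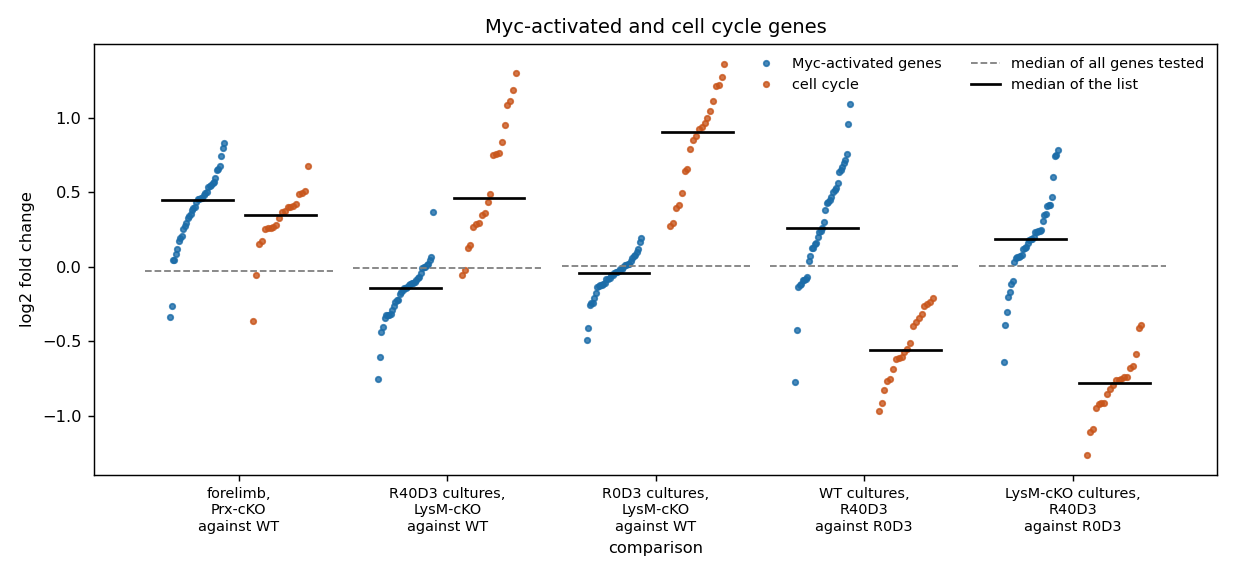
Log2 fold changes (y axis) of the Myc-activated genes (blue) and the cell cycle genes (orange) in 5 comparisons (x axis), each point 1 gene sorted by value, with a black line at the list's median and a dashed line at the median of all genes tested. The Myc-activated medians lie at 0.45 in the forelimb, -0.14 and -0.04 for LysM-cKO against WT in R40D3 and R0D3, and 0.26 and 0.19 for R40D3 against R0D3.

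Genes described as repressed by Myc gave both directions, with 4 of 10 higher in WT and 3 of 10 in LysM-cKO. Cebpa, a myeloid transcription factor, was called lower in WT (-0.64) and LysM-cKO (-0.54), and the stress gene Ndrg1 likewise (-1.20 and -1.04), while Cdkn1a was called lower in WT (-0.56, adjusted p = 0.0325) and in LysM-cKO had a value of -0.46 (adjusted p = 0.0859, and 0.0171 with the replicate block). The cell cycle inhibitor Cdkn2b was higher without a call, by 1.05 in WT (adjusted p = 0.0677) and 0.99 in LysM-cKO (adjusted p = 0.125), and rose in both with the block (adjusted p = 0.0231 and 0.0466). With the block 2 of the 10 were called higher and 4 lower in each genotype. Of the corepressor subunits Sin3b rose in both genotypes (0.70 and 0.51) and Hdac2 in WT (0.59; LysM-cKO 0.38, adjusted p = 0.0667, and 0.0236 with the block). Rbbp7 had 0.37 in WT (adjusted p = 0.102) and rose there with the block (adjusted p = 0.0106). Of the 16 coactivators and other partners 1 was called, the small Myc-binding protein Mycbp in WT (0.85), with 0.31 in LysM-cKO (adjusted p = 0.335). The kinase Pim1 had -0.98 in WT (adjusted p = 0.109) and -1.05 in LysM-cKO (adjusted p = 0.119), and fell in both with the block (adjusted p = 0.00011 and 0.000137). Actl6a, a chromatin remodelling subunit, was called higher in WT with the block (adjusted p = 0.0215). Among targets of Mlx and its partners, the lipid enzyme Fasn (-0.85 and -0.72) and the arrestin-like Arrdc3 (-0.69 and -0.61) fell in both genotypes, and Klf10 rose (0.61 and 0.66). Arrdc4 rose in LysM-cKO (1.08, adjusted p = 0.0436), and Acacb had 1.86 in WT (adjusted p = 0.0534; 0.0318 if blocked). Without the block no PRC1.6 partner or stability regulator was called in either genotype. With it, the PRC1.6 subunit Rnf2 was lower in WT (adjusted p = 0.0209), as 1 of 10 partners. Of 15 stability regulators, the ubiquitin ligase Huwe1 was higher (0.0132) and the ligase subunit Fbxw7, which marks Myc for degradation, was lower (0.0456). None of either list was called in LysM-cKO. Over all genes tested, 16.9% were called in WT and 10.1% in LysM-cKO, and 28.3% and 21.3% with the block. The cell cycle genes had a median of -0.56 in WT and -0.78 in LysM-cKO, with 0 of 20 higher in both, and Pcna was the 1 called (-0.97 and -1.26). With the replicate block 2 of 20 were called lower in WT and 11 in LysM-cKO, beside 1630 and 1153 of all 14030 genes tested. Without R0D3 replicate 2 of the same genotype, 4 and 8 of 20 were higher. The genotype difference in these responses was tested by the interaction, and edgeR called 0.0% of genes in it, with 248 genes at an unadjusted p under 0.05.

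Deletion of Impdh2 in the cultures left no called member in either condition. At R40D3, Mxd4 was at 159 and 154 CPM in LysM-cKO and at 136 and 124 in WT, and the knockout libraries were higher without overlap (0.27, SE 0.10, unadjusted p = 0.0242, adjusted p = 0.648, edgeR). Mlx had the opposite order, at 33.7 and 37.9 CPM against 44.0 and 42.8 (-0.28, SE 0.13, adjusted p = 0.648). Mycl was at 1.48 and 2.96 CPM against 1.46 and 1.65 (0.49, SE 0.43), and without LysM-cKO replicate 2 the value was -0.08. Myc did not differ beyond its error (0.00, SE 0.28). At R0D3 the groups overlapped for every member tested, and the largest values, Mycl (1.45, SE 1.51) and Mxd3 (0.67, SE 0.53), had wide errors. No member of 9 was called beside 0.0143% of all genes at R40D3 and 0.0143% at R0D3, nor with the replicate block beside 0.214% and 0.0214%. Mxd4 was the 1 member at an unadjusted p under 0.05 at R40D3 (edgeR), where 561 of 14030 genes were higher and 487 lower at that level. The share of all genes without overlap was not computed for the cultures.

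Myc-activated genes stood lower in LysM-cKO than in WT at R40D3, where in the forelimb they stood higher in the knockout, and again none passed the adjusted test. Of 37 genes 6 were higher, 4 were lower at an unadjusted p under 0.05 and the median was -0.14. Of all 14030 genes tested 48.6% were higher, and 487 were lower at that level. The pyrimidine enzyme Cad was at 29.0 and 30.7 CPM against 38.8 and 40.3 (-0.40, SE 0.10, adjusted p = 0.648), and Odc1 was at 76.2 and 87.7 against 102 and 120 (-0.44, SE 0.12). The RNA polymerase I subunit Polr1b (-0.34) and Hspd1 (-0.23) were the other 2. The 10 osteoclast markers summed to 13189 and 24833 CPM in LysM-cKO R40D3 and to 26292 and 38759 in WT R40D3. Stromal fibroblast markers summed to 1503 and 451 against 1695 and 1621. The 10 macrophage markers summed to 20700 and 18729 CPM against 27213 and 27847, with 4 of 10 higher. Their sums at R0D3 were 24458 and 24969 against 38786 and 43933, with 5 of 10 higher. Of 7 neutrophil markers tested 0 were higher in either condition. The part of these lists was not tested. At R0D3 12 of 37 Myc-activated genes were higher (21 without WT replicate 2) with a median of -0.04, where 51.7% of all genes were higher. Cell cycle genes were higher in 20 of 20 at R0D3 with a median of 0.90 (12 of 20 without LysM-cKO replicate 2) and in 18 of 20 at R40D3 with a median of 0.46 (10 of 20 without LysM-cKO replicate 2), so the LysM-cKO libraries numbered 2 carry much of that order.

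**Figure D5:**
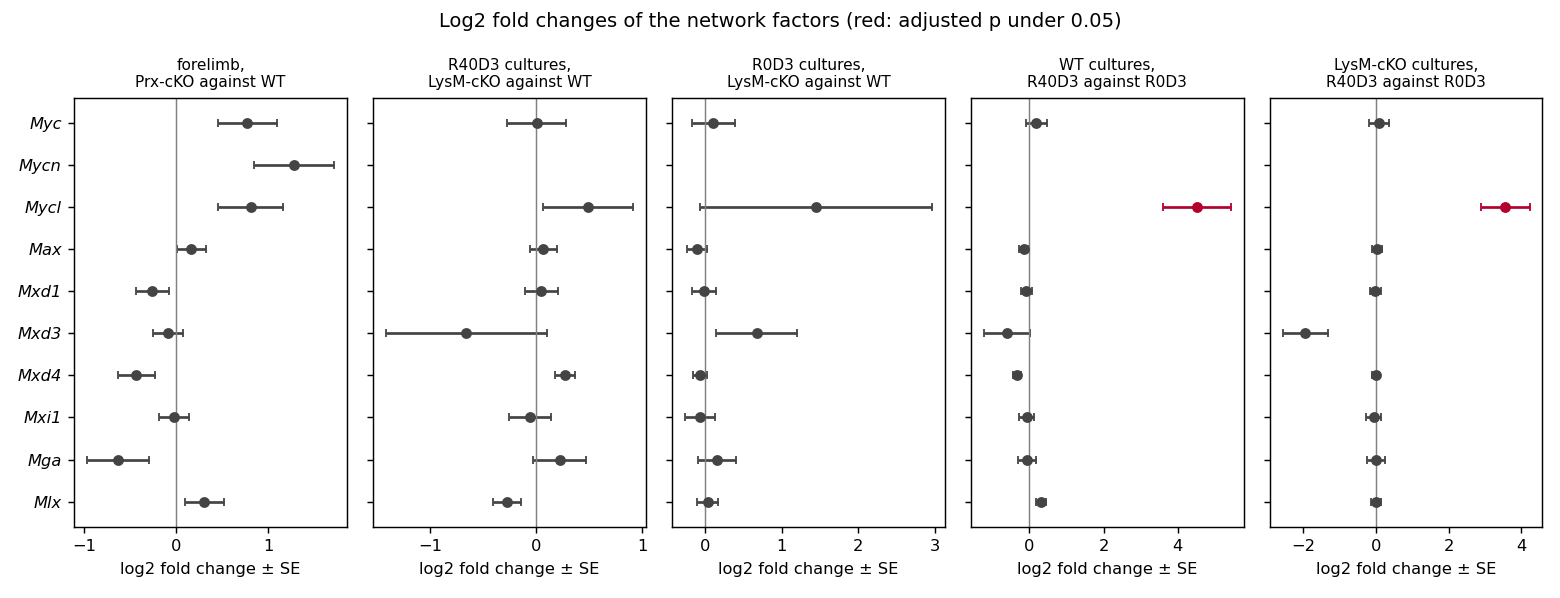
Log2 fold change with its SE (x axis, its own scale in each panel) of the 10 network genes (y axis) in 5 comparisons, red where the adjusted p was under 0.05. Mycl at R40D3 against R0D3 is the only red point, in both genotypes (4.53 and 3.57), and Mycn has no culture value because it was not detectable there.

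The genotype comparisons of the 2 tissues can be set side by side. In the forelimbs the log2 fold changes of knockout against WT were 0.77 (SE 0.32) for Myc, 0.81 (SE 0.35) for Mycl and 1.28 (SE 0.43) for Mycn. In the cultures they were 0.11 (SE 0.28) for Myc at R0D3 and 0.00 (SE 0.28) at R40D3. Mycl, which rests on few counts there, had 1.45 (SE 1.51) at R0D3 and 0.49 (SE 0.43) at R40D3. Mxd4 was lower in the knockout forelimbs (-0.43) and higher in the knockout R40D3 cultures (0.27), and Mlx was higher (0.31) and lower (-0.28). Neither tissue difference was tested.

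The genes whose log2 levels ran most like 3 of the members over the 8 culture libraries were found by Pearson's r among the 14030 genes tested, as a description. Those closest to Myc were the immediate early gene Fos (r = 0.98), Aph1b (0.97) and Ahcy (0.97). Those closest to Mycl were Pgm2 (1.00), Tmem41a (0.99) and Slc44a1 (0.99), and those closest to Mxd4 were Vezf1 (0.97), Mbtd1 (0.96) and Tbc1d15 (0.95). The 8 libraries share 4 groups and paired replicate numbers, so these values follow the same few contrasts: for Myc the difference between libraries numbered 1 and 2, and for Mycl that between R0D3 and R40D3.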

How the data were processed

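Messenger RNA of 4 forelimb and 8 culture libraries was sequenced by the authors, who deposited unnormalized counts for each Ensembl gene in 3 tables. Per the submitters' processing notes the tools were FastQC 0.11.2, Trimmomatic 0.36, HISAT2 2.1.0 and DESeq2 1.12.4 with build GRCm38. The counting tool, the annotation release and the use of strand are not given in the sources used here. The identifiers differ between the tables (51327 shared), so the tissues were fitted apart.

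From the counts, edgeR 4.0.16 (R 4.3.3) removed low genes with filterByExpr, leaving 19987 forelimb and 14030 culture genes, scaled libraries by TMM and ran the quasi-likelihood test with Benjamini-Hochberg adjustment. All 10 members passed in the forelimb and 9 in the cultures (not Mycn). A gene was called at an adjusted p under 0.05. The forelimb fit used 4 libraries and the culture fit 8, with genotype contrasts within R40D3 and R0D3, R40D3 against R0D3 within genotype, and the interaction. CPM uses the TMM library sizes. The scripts were tested on simulated counts.

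The replicate number is on the labels. In the cultures same-numbered libraries deviated together in all 6 pairs of groups (r = 0.343 to 0.609 across genes), so the numbers pair the cultures. The culture counts were also deposited separately for each replicate number, and what sets the numbers apart was not tested. The value with the replicate block stands beside a named result whose call it changes.

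Every member was named with its values. Of each further list the text names up to 4 genes by smallest p, and all of Mnt, Mlxip and Mlxipl. The likeness search took Myc and the 2 other members with the smallest p in WT R40D3 against R0D3. The members and lists were chosen with earlier results of these data known. Alternatives were DESeq2 1.42.0, other scaling, no filter, edgeR's older dispersion method, the block, fitting only the 4 libraries compared, leaving out each library, and the longest transcript as length; list counts under every setting and the count ratio of Mycl were added after seeing the data.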

Additional observations from a re-analysis of the deposited data

Results flagged for a closer look

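For 2 members every knockout library lay on one side of WT in the forelimb and on the other side in the R40D3 cultures. For Mxd4 the log2 fold change in the forelimb minus that in the R40D3 cultures was -0.70, with the knockout lower in the forelimb and higher in the cultures. For Mlx it was 0.59, with the knockout higher in the forelimb and lower in the cultures. The difference was not tested in either case. In the forelimb alone 22.2% of all genes tested were higher without overlap and 21.0% lower. The share of all genes with such an opposite order in the 2 tissues was not computed.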

How the results depend on the processing

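Mycl was the 1 member called in each R40D3 against R0D3 comparison. In WT 2 members were called with DESeq2, median-ratio scaling, the replicate block or only the 4 libraries compared, the added one being Mxd4, and 0 to 1 when 1 library was left out. In LysM-cKO 2 were called with the block and 0 with only the 4 libraries, and 0 to 1 when 1 library was left out. In the forelimb no member was called except Mycn without WT replicate 2, so that the count ran from 0 to 1. Genes called in the forelimb numbered 302 with DESeq2 and 0 to 605 when 1 library was left out. For LysM-cKO against WT at R40D3 the 2 genes called became 16 with DESeq2, 30 with the block, and 0 with library size alone, with only the 4 libraries or without any 1 library. At R0D3 the 2 became 7 with DESeq2 and 0 with only the 4 libraries or without any 1. For R40D3 against R0D3 the 2370 genes called in WT became 3976 with the block and 689 to 1699 without 1 library, and the 1422 in LysM-cKO became 2983 with the block, 532 with only the 4 libraries and 399 to 1317 without 1 library. The value of Mycl for LysM-cKO against WT at R40D3 ran from -0.083 to 0.95 over the fits that left out 1 library, turning negative without LysM-cKO replicate 2. Other sign changes of members were in values within 1 SE of 0, which have no direction. Apart from edgeR's fits with fewer libraries, whose lone sample is assumed to vary like the other groups, the cause of these changes was not tested. In the forelimb the same-numbered libraries deviated together less than in the cultures (r = 0.261), and whether the numbers pair them is not known. The replicate block gave 0 calls there too. With it the unadjusted p (edgeR) was 0.0045 for Mycn, 0.0076 for Myc, 0.0101 for Mycl and 0.0285 for Mxd4. Their adjusted p was 0.291 to 0.351, and 2586 of 19987 genes had an unadjusted p under 0.05. Depth limits Mycn, Mycl and Mxd3 in the cultures, and 2 libraries a group limit every error.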
